A study of Caenorhabditis elegans with 2 samples.

Results

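Among the strongest peaks of TBX-7 ChIP-seq signal in Caenorhabditis elegans late embryos, 244 had a summit at the head of an operon-like gene cluster. They were selected on signal and on position. The peak is among those of highest signal in the list of 8759 called on both replicates together, down to a limit that keeps 2 times as many peaks as the 690 of the authors' final list. That larger list was the input to the authors' test of agreement between replicates and is labelled as peaks and background. A place in it alone does not establish binding. The summit of each selected peak lies near the start of a cluster head, at most 1000 bp before it or 200 bp after it. A head is a protein-coding gene whose next gene on the same strand starts within 500 bp of its end, and which itself has no same-strand gene ending within 500 bp before it. The genes after the head are called followers. Of the other peaks above the limit, 500 lay in the promoters of protein-coding genes that head no cluster and 636 outside all promoters. The 244 peaks lay at 272 heads, whose clusters hold 401 followers, 673 genes in all. Both libraries came from 1 group: ChIP-seq on whole late embryos of the hermaphrodite strain OP311, 3 h after synchronization by egg bleaching, from 2 biological replicates. The worms carry TBX-7 with GFP and FLAG at its C terminus, expressed from a transgene, and the descriptions name an antibody against GFP, while the antibody field names tbx-7. Signal is the peak caller's own value per peak as deposited by the authors, and it ranks peaks only within 1 list.

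In C. elegans many genes are transcribed as operons, in which 1 promoter in front of the first gene serves several genes on the same strand. The long transcript is cut into single messages by trans-splicing, in which a short spliced leader is joined to an acceptor site just before each gene: downstream genes commonly receive SL2, while first genes often receive SL1. Operons are known for genes of basic cell functions such as ribosomes, splicing and mitochondria, and the genes within them are usually spaced by short gaps. TBX-7 is a member of the T-box family, whose DNA-binding domain recognises variants of the site AGGTGTGA. No operon annotation was used here, so whether each cluster is transcribed as 1 unit was not tested, and "cluster" means spacing and strand alone.

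Summit windows are shown to let the sequence under these peaks be seen. For each of the 5 short words that were more frequent at summits than beside them, the window of the strongest cluster-head peak on chromosomes II, III, IV, V and X that holds it and is clear of exons is printed, from the RefSeq sequence of WBcel235 (ce11), 50 bases to either side of the summit, 5′ to 3′ in the direction of the head gene. Capitals mark the words that passed, in either orientation. The window at K12H4.5 (III:8043909-8044009, plus strand) holds a run of TCTCTC, the reverse complement of GAGAGA. The window at jmjd-1.2 (IV:4660553-4660653, plus strand) holds ACACC, the reverse complement of the T-box core GGTGT. That of T07F10.3 (V:12870092-12870192, minus strand) holds CCCGCC, the reverse complement of GGCGGG. That of snx-13 (IV:17087572-17087672, minus strand) holds AGACGC, the reverse complement of GCGTCT. That of drr-2 (III:13643690-13643790, minus strand) holds CTGCGTC at 2 places and 3 other words.
K12H4.5: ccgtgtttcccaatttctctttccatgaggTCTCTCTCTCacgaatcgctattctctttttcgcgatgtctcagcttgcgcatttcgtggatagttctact
jmjd-1.2: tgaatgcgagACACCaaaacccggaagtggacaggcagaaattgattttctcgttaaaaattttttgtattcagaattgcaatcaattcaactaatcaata
T07F10.3: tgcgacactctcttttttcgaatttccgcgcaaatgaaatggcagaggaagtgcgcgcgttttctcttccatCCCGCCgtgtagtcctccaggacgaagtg
snx-13: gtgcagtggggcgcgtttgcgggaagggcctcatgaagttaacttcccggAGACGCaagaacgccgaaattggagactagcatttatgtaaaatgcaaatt
drr-2: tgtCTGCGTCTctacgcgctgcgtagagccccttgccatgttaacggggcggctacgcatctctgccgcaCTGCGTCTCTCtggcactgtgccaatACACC

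The starts of the genes are shown for the acceptor of trans-splicing. The 24 bases before the annotated start are printed in the gene's direction for 2 heads, fzo-1 (II:5836204-5836227, minus strand) and ippk-1 (II:12042886-12042909, plus strand), and for 3 followers, spcs-3 (III:8044993-8045016, plus strand), clk-2 (III:7518525-7518548, minus strand) and rab-7 (II:11966932-11966955, minus strand). They are examples that hold the word, from the clusters of the 20 strongest peaks. Capitals mark TTNCAG, the acceptor word, directly before the start.
fzo-1: ctttaaatatatttaagtTTTCAG
ippk-1: tgtatcccttttttcctcTTTCAG
spcs-3: tttcatttttatccaaagTTTCAG
clk-2: ttcgcattaaaaacaaatTTTCAG
rab-7: ttatcagttaattgatttTTGCAG

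The strongest peak at a cluster head had its summit 528 bp upstream of K12H4.5, with a signal of 1661 in the list of both replicates together, 896 in replicate 1 and 772 in replicate 2. Its cluster continues with spcs-3, a subunit of the signal peptidase complex, K12H4.3 and K12H4.2. The next, at vps-51, which encodes a vesicle tethering factor, had a signal of 709, with 404 in replicate 1 and 302 in replicate 2. Its followers are mtk-1, a MAP kinase kinase kinase gene, and glh-3, a germ granule helicase gene, and the summit also lies in the promoter of lin-35 on the other strand. The first peak stands well above the rest in each list, and signal falls gradually after it, as the plot of the 20 strongest peaks by replicate shows.

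**Figure D1:**
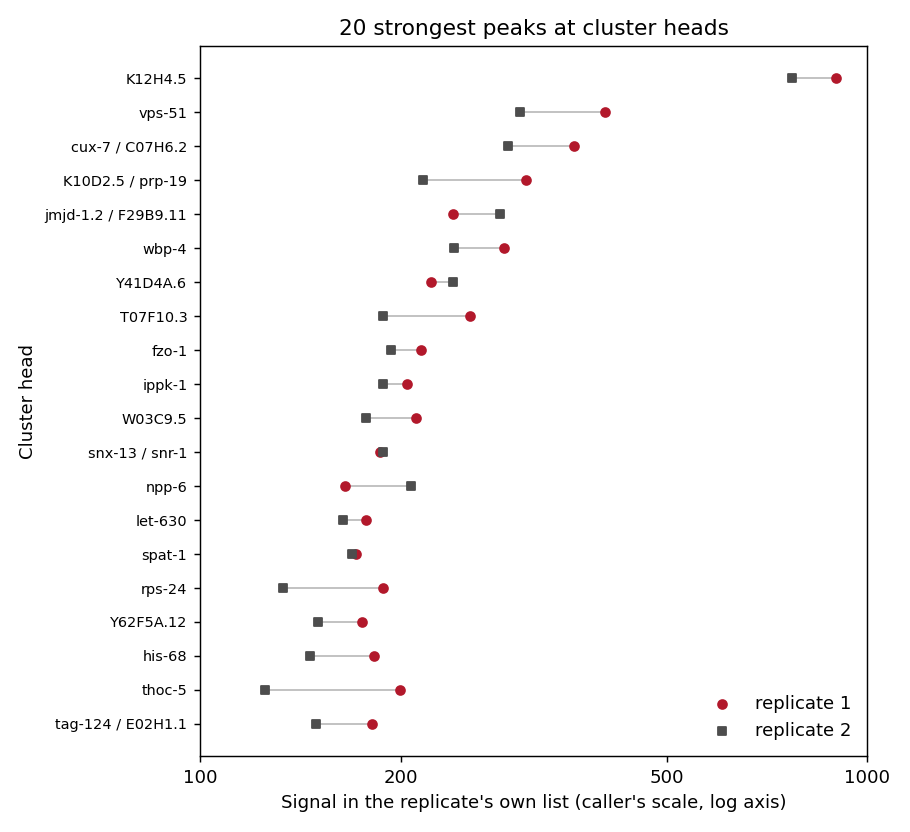
Signal of the 20 strongest peaks at cluster heads (rows, heads named, 2 names where heads lie on both strands) in replicate 1 (circles) and replicate 2 (squares), on a log axis and the caller's scale of each replicate's own list. K12H4.5 leads both lists with 896 in replicate 1 and 772 in replicate 2.

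Heads on both strands shared several of the strongest peaks. A peak with signal 652 (363 in replicate 1 and 289 in replicate 2) lay at the start of cux-7, which is followed by clk-2, a DNA damage checkpoint gene, and upstream of C07H6.2 on the other strand. Another, with 528 (308 and 216 in replicates 1 and 2), lay 42 bp upstream of K10D2.5, whose followers are emb-1, whose product belongs to the anaphase-promoting complex, and cid-1. On the other strand it lay upstream of prp-19, a splicing factor gene that heads a cluster of 6 genes. The histone demethylase gene jmjd-1.2 and F29B9.11, which is followed by mrps-21, a mitochondrial ribosomal protein gene, shared a peak of 524 (239 in replicate 1 and 281 in replicate 2). The sorting nexin gene snx-13 and snr-1, which encodes an Sm core protein of the spliceosome, shared 1 with a signal of 377 (186 in replicate 1 and 188 in replicate 2). The last pair, tag-124 and E02H1.1, had 323, with 181 in replicate 1 and 149 in replicate 2, and tag-124 is followed by parp-2, a poly(ADP-ribose) polymerase gene, E02H1.5, E02H1.6 and mrpl-53. Of the 20 strongest cluster-head peaks, 5 had heads on both strands and 12 lay in the promoter of some gene on the other strand.

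Several others among the 20 stood before heads with well described roles. At fzo-1, which encodes mitofusin and is followed by gtap-1, ZK1248.11 and tbc-2, the signal was 400, with 214 in replicate 1 and 193 in replicate 2. The inositol phosphate kinase gene ippk-1, followed by nadk-2, had 393 (204 and 188 in replicates 1 and 2). At W03C9.5, followed by the late endosome GTPase gene rab-7, it was 389, with 211 in replicate 1 and 177 in replicate 2. The nucleoporin gene npp-6, followed by the endonuclease gene slx-1, had 375 (165 in replicate 1 and 207 in replicate 2). The ribosomal protein gene rps-24 had 327 (188 and 133) and thoc-5, of the THO complex for mRNA export, had 326 (199 and 125). Y62F5A.12 had 327 (175 and 150), and its followers are mdt-8, a Mediator subunit gene, and age-1, the phosphoinositide 3-kinase gene of insulin signalling. The peaks at wbp-4 (followed by png-1), Y41D4A.6 (ptpn-22), T07F10.3 (nspg-1), let-630 (ppw-2), spat-1 (C04H5.1) and his-68 (alg-5) had signals of 522, 455, 446, 342, 338 and 326 in that order. All 20 were found in both replicates, ranked 67 or better in replicate 1 and 83 or better in replicate 2. Histone genes such as his-68 occur in near-identical copies, so reads placed there are uncertain.

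Cluster-head peaks were somewhat stronger than the other promoter peaks. Their signals ran from 61.2 to 1661 with a median of 108 (quartiles 73.0 and 190), and those of the other promoter peaks from 60.6 to 997 with a median of 92.8 (quartiles 70.2 and 146). By band, 6 cluster-head peaks had a signal of 500 or more, 51 from 200 to 500, 75 from 100 to 200 and 112 under 100. They made up 9 of the 20 and 39 of the 100 strongest peaks of the list. The authors' final list, which passed their test for agreement between replicates by irreproducible discovery rate (IDR), held 156 of the 244 (63.9%, Wilson 95% interval 57.7 to 69.7%), where it held 50% of all peaks above the limit, 55.8% of the other promoter peaks and 40.1% of the peaks outside promoters. That list is exactly the strongest part of the larger one, so these shares restate signal. Since signal chose the peaks, no test was made. A further 400 peaks at cluster heads lay below the limit, in the rest of the list. The caller's −log10 q-value of the 244 ran from 1.17 to 2.97, with a lower quartile of 1.99 and a median of 2.57.

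Neither limit falls at a break in signal. Just inside the IDR list lay the peaks at clsp-1 (89.8), fli-1 (87.7) and vps-24 (86.8), and just outside it those at erh-1 (85.9), him-17 (85.8) and cap-1 (85.7). Just inside the limit on signal lay taf-11.1 (61.4), F32B5.2 (61.2) and ubxn-3 (61.2), and just below it sfxn-1.2 (60.2), Y73F8A.27 (59.8) and nra-2 (59.8). Vps-24 acts in endosomal sorting, fli-1 encodes a flightless homologue that binds actin, and cap-1 encodes a subunit of the actin capping protein.

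Heads had a summit in the promoter more often than followers or than genes in no cluster. Of 2817 heads, 272 had at least 1 (9.66%, Wilson 95% interval 8.62 to 10.8%), against 142 of 3951 followers (3.59%), 600 of 13205 genes in no cluster (4.54%) and 5.08% of all 19973 protein-coding genes. With the IDR list alone the shares were 6.35% of heads, 2.15% of followers and 2.72% of genes in no cluster. Some follower promoters reach back over the head, and 30 followers had a summit that was also in a head's promoter. The other 112 followers (2.83%) had a summit that lay in no head's promoter. In clusters with a peak at the head, that was so for 12 of 401 followers (2.99%), close to the 98 of 3526 (2.78%) in clusters without one. A few of the 3951 followers, where gene models overlap, belong to no cluster that starts at a head and are in neither group. These shares describe position, which the selection used, and were not tested.

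Divergent gene starts went with a higher share in both classes of gene. Of the 886 heads with a start on the other strand within 1000 bp upstream, 171 had a peak (19.3%), against 5.23% of the 1931 heads without such a start. Genes in no cluster gave 293 of 2598 (11.3%) with and 307 of 10607 (2.89%) without such a start. Heads thus had the higher share in both layouts. A summit between 2 divergent starts cannot be assigned to 1 of them, and 152 of the 244 peaks (62.3%) lay in the promoter of a gene on the other strand as well. In 43 (17.6%) the other gene headed a cluster too, and 80 (32.8%) lay in the promoter of a single gene. In 28 the summit was also within reach of a follower of the same cluster.

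**Figure D2:**
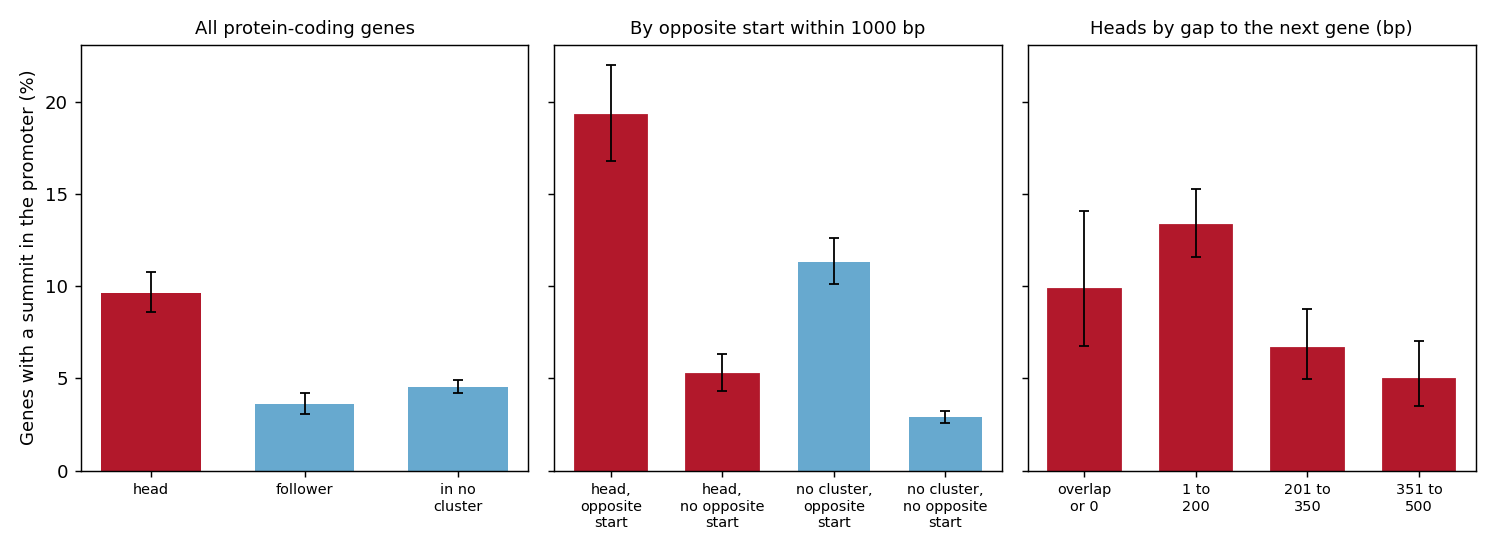
Share of protein-coding genes with at least 1 of these summits in the promoter, in percent, with Wilson 95% intervals as bars. Left, heads, followers and genes in no cluster; middle, heads and genes in no cluster with or without an opposite gene start within 1000 bp; right, heads by the gap to the next gene. Heads reach 9.66% in all, 19.3% with an opposite start and 13.3% where the gap is 1 to 200 bp.

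Spacing within the cluster was not used beyond the limit of 500 bp, and the share varied along it. Of heads whose next gene starts 1 to 200 bp away, 173 of 1298 had a peak (13.3%, Wilson 95% interval 11.6 to 15.3%). The share was 9.84% where genes overlap or touch, 6.64% at gaps over 200 and up to 350 bp and 4.98% at larger gaps up to 500 bp (3.51 to 7.02%). The median first gap was 111 bp in clusters with a peak (quartiles 90.8 and 221 bp) and 184 bp in clusters without one (quartiles 94.0 and 333 bp). By number of genes, 189 of 2066 clusters of 2 genes had a peak (9.15%), 52 of 513 of 3 genes (10.1%), 20 of 152 of 4 genes (13.2%) and 11 of 86 of 5 or more (12.8%), with intervals that overlap. The gap and the layout on the other strand were not separated.

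The longest clusters with a peak held 6 genes each. The prp-19 cluster on chromosome III spans 16584 bp with ulp-1, a SUMO protease gene, T10F2.2, gars-1, which encodes glycyl-tRNA synthetase, T10F2.5 and oxy-4. The tag-266 cluster (sbds-1, T19C3.7, fem-2, T19C3.6 and T19C3.5) had a peak of 263, shared with tag-267 on the other strand. Weaker peaks stood at rpl-5 (64.5; bcs-1, F54C9.7, puf-5, F54C9.9 and arl-1) and at C14B1.2 (63.8; C14B1.3, wdr-5.1, dph-1, alkb-8 and nrde-1). Clusters of 5 genes numbered 7, and of these the tag-124 cluster described above had the strongest peak. Products in 1 cluster differ widely: fem-2 is a sex-determination phosphatase gene and sbds-1 a ribosome maturation gene.

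Most summits lay within 500 bp upstream of the head's start. The selection admitted only summits from 1000 bp upstream to 200 bp downstream, so a position upstream is largely set by it. The median position was −240 bp (quartiles −370 and −135 bp) from the nearest head start. For the other promoter peaks it was −224 bp from the nearest start of any gene, which is an unlike measure. Of the 244 summits, 37 lay over 500 bp upstream, 110 lay over 200 and up to 500 bp upstream, 86 lay 1 to 200 bp upstream and 11 lay at or past the start. The annotated start of a trans-spliced gene can be the splice site and not the start of transcription. A pair of summits was found at 15 heads, among them Y62F5A.12 (327 and 274), rps-24 (327 and 276) and spat-1 (338 and 163), and 0 heads had 3 or more.

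**Figure D3:**
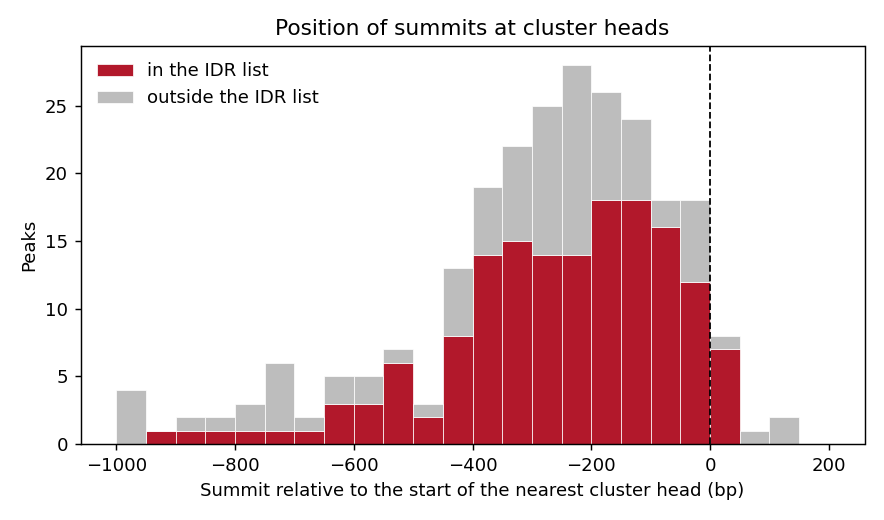
Number of cluster-head peaks by position of the summit relative to the start of the nearest cluster head, in bins of 50 bp, with peaks inside and outside the IDR list stacked; the dashed line marks the start. The 244 summits have a median of −240 bp, and 11 lie at or past the start.

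Chromosomes differed in the share of heads with a peak. It was 14.7% on III (62 of 421, Wilson 95% interval 11.7 to 18.4%), 12.5% on I, 10.4% on II and 10% on IV, and lower on V, with 5.66% (41 of 724, 4.2 to 7.59%), and on X, with 5.08% (12 of 236, 2.93 to 8.68%). These shares were not tested against each other. No like share by chromosome is given for genes in no cluster or for all peaks, so whether the differences are particular to heads was not tested.

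Both replicates held most of these peaks. A summit within 100 bp was listed in replicate 1 for 237 of 244, in replicate 2 for 230 and in both for 223 (91.4%, Wilson 95% interval 87.2 to 94.3%). The other promoter peaks gave 463 of 500 (92.6%). Of cluster-head peaks in the IDR list 151 of 156 were in both (96.8%), and of those outside it 72 of 88 (81.8%). In all, 14 were in replicate 1 only, 7 in replicate 2 only and 0 in neither, and the strongest of these had a signal of 114 (T22C1.1, chosen after its value was seen). The replicate lists before the IDR test are permissive, with 16060 and 9840 peaks. When each replicate was limited to as many of its strongest peaks as were used from the list of both, the share found in both was 67.2%.

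Signal was correlated between the replicates. Across the 223 peaks, Spearman's rho was 0.85 and Pearson's r of log2 signal 0.87, given as a description, since the peaks were called on the same reads and share libraries and 1 control. Signal had a median of 62.9 in replicate 1 (15.8 to 896) and 52.9 in replicate 2 (20 to 772). Summits of the 2 replicates lay a median of 24.0 bp apart (quartiles 8 and 45 bp), and 103 pairs lay within 20 bp. The ranks differed most for the second summit at cwc-15, a splicing factor gene (15.8 and rank 11812 in replicate 1, 45.0 and rank 667 in replicate 2). Next were ZK622.4, epc-1 and Y54E2A.4, also ranked far lower in replicate 1, and rpl-5, which ranked 1140 in replicate 1 and 8923 in replicate 2. All 5 lie outside the IDR list.

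**Figure D4:**
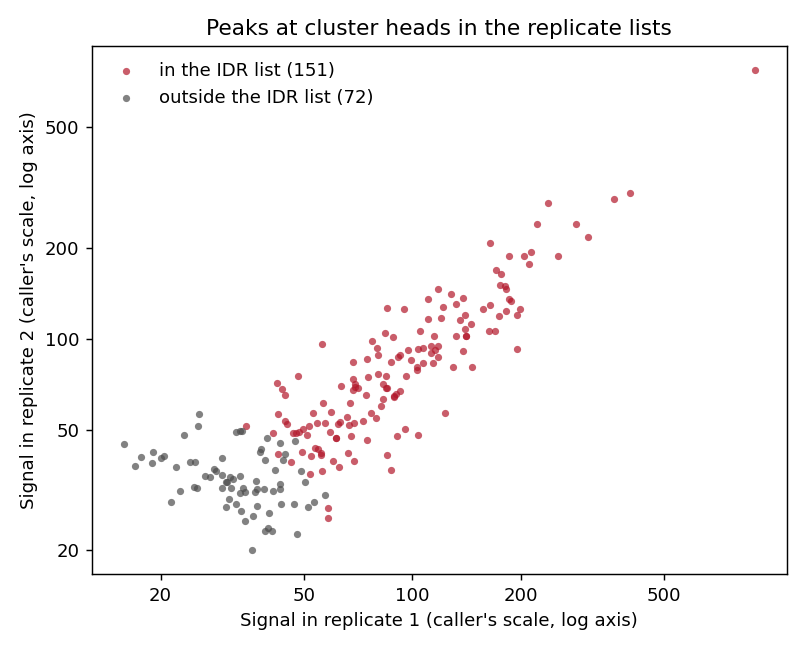
Signal of the 223 cluster-head peaks found in both replicates, replicate 1 against replicate 2, on log axes and the caller's scale of each list; 151 peaks in the IDR list and 72 outside it are coloured apart. Spearman's rho over the 223 points is 0.85.

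Sequence content was not used in the selection and was tested. Position was used, and few summits but most flank centres lay inside a gene, as given below. The test against flanks therefore cannot separate a property of the peaks from that difference in position. The words were chosen with earlier results of these data known, so the p-values do not come from an independent choice of words. Of 14 words sought in windows of 50 bp to either side, 5 were more frequent at cluster-head summits than in windows 500 bp away, and 1 was less frequent (exact McNemar test, two-sided, Benjamini-Hochberg adjusted over the 14 words, peaks taken as independent). GCGTCT was in 26 of 244 summit windows (10.7%) against 1.64% of flanks (exact adjusted p = 0.000187), and GGCGGG in 19 (7.79%) against 0.410% (exact adjusted p = 0.000187). CTGCGTC, which overlaps GCGTCT in GCGTC, was in 12 (4.92%) against 0.410% (exact adjusted p = 0.0106). The GA repeat word GAGAGA was in 37 (15.2%) against 7.38% (exact adjusted p = 0.0219), as in the K12H4.5 window printed above. The T-box core GGTGT was in 45 (18.4%) against 9.02% (exact adjusted p = 0.0106). TTTCAG, which matches the splice acceptor, was in 15 (6.15%) against 58 flanks (23.8%, exact adjusted p = 4.74e-07).

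These calls varied in firmness. Without replicate 1 the difference for GGTGT was 3.65 percentage points in place of 9.43 (exact adjusted p = 0.417) and that for CTGCGTC 2.74 in place of 4.51 (exact adjusted p = 0.250). Without replicate 2 the difference for GGCGGG was 1.19 points in place of 7.38 (exact adjusted p = 0.801). Over the 12 alternatives, the exact McNemar adjusted p ran from 0.00625 to 0.597 for GGTGT, from 0.000167 to 0.972 for CTGCGTC, from 0.000187 to 0.801 for GGCGGG, from 6.27e-05 to 0.709 for GAGAGA, from 5.84e-06 to 0.153 for GCGTCT and from 5.48e-09 to 0.0528 for TTTCAG. Without the peaks shared with an opposite-strand gene, 92 remained and 0 of 14 words passed the exact McNemar test, with 3 at an unadjusted p under 0.05. The differences there were 14.1 percentage points for GGTGT, 9.78 for GGCGGG, 8.70 for GAGAGA, 7.61 for GCGTCT, 2.17 for CTGCGTC and −13.0 for TTTCAG, against 9.43, 7.38, 7.79, 9.02, 4.51 and −17.6 over all 244. With windows of 25 bp to either side the difference for GAGAGA was 1.64 points (exact McNemar adjusted p = 0.709). With the IDR list alone, 1 passed, TTTCAG. Peaks at 1 head are not independent. With only the strongest summit of each head, 232 peaks remained and 4 words passed. There GGTGT differed by 7.76 points and GAGAGA by 6.90, and neither passed (exact McNemar adjusted p = 0.0518 for each). GC content had a median of 47.0% at summits and 37.6% in flanks, and 8.61% of summits but 72.5% of flank centres lay inside a protein-coding gene. The part of base composition and of gene sequence in these differences was not tested. As a further background, windows centred 200 bp upstream of all 19973 gene starts held GGTGT in 10.5%, GCGTCT in 2.66%, CTGCGTC in 1.56%, GAGAGA in 7.47%, GGCGGG in 2.18% and TTTCAG in 16.9%.

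The longer T-box site was not seen. AGGTGTGA was in 0 of 244 summit windows, which leaves room for a share of 1.23% by the limit of 3 counts or 1.55% by the Wilson 95% interval, and in 0 flanks. GGTGTGA was in 0 summit windows and 2 flanks (exact McNemar p = 0.500, adjusted p = 0.636). In all gene promoters, windows of the same length held AGGTGTGA in 0.215% and GGTGTGA in 0.766%, so few would be met in 244 windows at that rate. The other words with more than a few windows, CGCGAA (8.61% at summits and 3.69% in flanks) and TTTTTT (25% and 33.6%), did not pass (exact McNemar adjusted p = 0.0683 for each).

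No word passed the test between cluster-head peaks and the other promoter peaks. With Fisher's exact test (two-sided, adjusted over 14 words) 0 of 14 passed, and 1 had an unadjusted p under 0.05. That was GATAAG, found in 0% of cluster-head windows and 1.80% of the others (Fisher's exact p = 0.0345, adjusted p = 0.483). GGTGT was in 18.4% of cluster-head windows and 17.2% of the others, a difference of 1.24 points with a 95% interval from −4.39 to 7.40. GCGTCT was in 10.7% and 9.80%, a difference of 0.856 points (−3.54 to 5.91). GAGAGA was in 15.2% and 17.8%, a difference of −2.64 points (−7.98 to 3.28). At least 1 of the 5 words was in 41.4% of cluster-head windows and 42% of the others. Intervals of this width leave differences of several points undetected. Cluster-head peaks lay beside a tRNA, snoRNA, snRNA or rRNA gene in 10 of 244 cases (4.10%) and the others in 53 of 500 (10.6%).

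The acceptor word TTNCAG stood directly before the annotated start of many genes in these clusters. It was there for 100 of 272 heads with a peak (36.8%) and for 22.8% of heads without one. For followers it was there in 122 of 401 in clusters with a peak (30.4%) and in 17.9% of those in clusters without one, against 17.9% of genes in no cluster. Counting all annotated transcript starts of a gene, the shares were 51.1% of heads with a peak and 30.9% of heads without one, 38.4% and 23.7% of followers in clusters with and without a peak, and 24.4% of genes in no cluster. The mean number of annotated starts per gene was 1.58 for heads with a peak and 1.52 for heads without one, 1.59 and 1.43 for followers in the same order, and 1.5 for genes in no cluster. The word shows neither which spliced leader is used nor that trans-splicing occurs. These shares were described and not tested.

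Gene lists were used to describe what the clusters hold. Of the 673 genes in clusters with a peak at the head, which are 3.37% of all protein-coding genes, 158 (23.5%, Wilson 95% interval 20.4 to 26.8%) belong to at least 1 of 25 lists taken by gene symbol, against 18.7% of all protein-coding genes and 20.3% of genes in any cluster. The lists range from ribosomal proteins to chemoreceptors, and their own shares differ. A list holds only genes with the chosen symbols. Listed genes that lie close together can share 1 peak, and the lists were described and not tested. Cluster membership itself differs between lists: 33.9% of all protein-coding genes lie in some cluster, and 9.94% of those in a cluster lie in 1 with a peak.

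**Figure D5:**
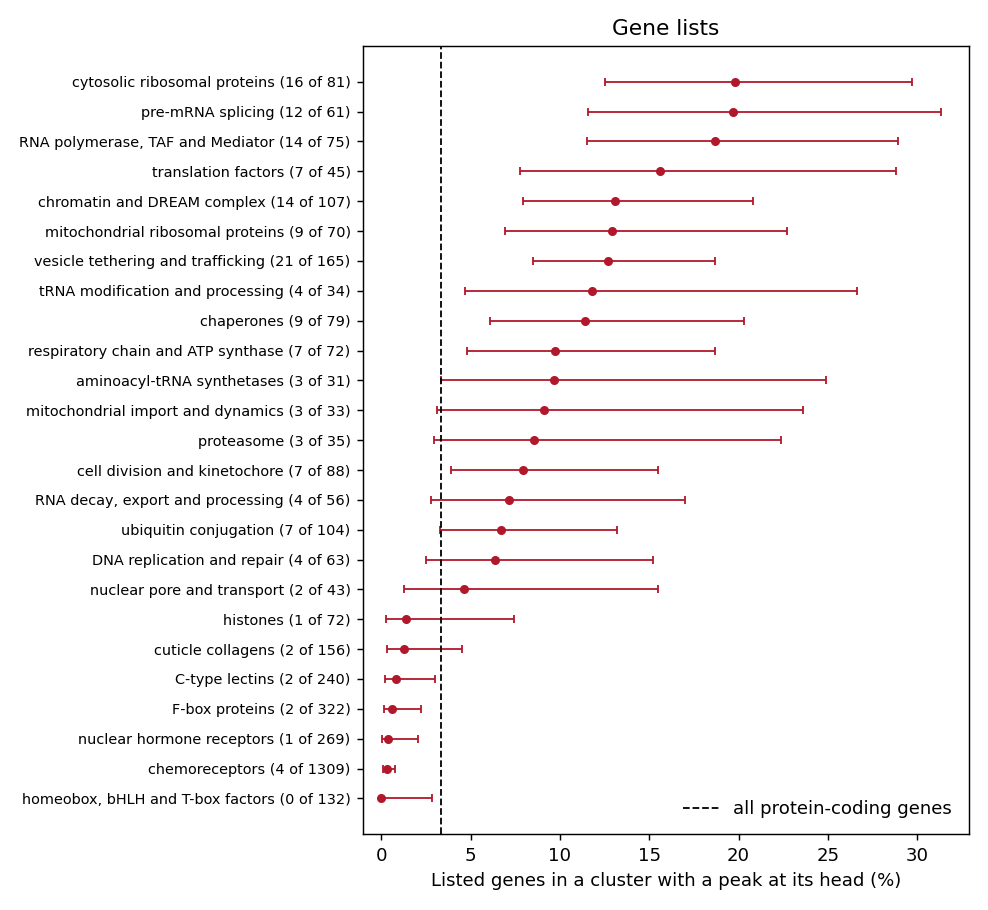
Share of the genes of 25 symbol lists that lie in a cluster with a peak at its head, in percent, with Wilson 95% intervals; counts stand beside the names, and the dashed line is the share of all protein-coding genes (3.37%). Cytosolic ribosomal proteins (19.8%) are at the top and homeobox, bHLH and T-box factors (0 of 132) at the bottom.

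The share of a whole list was highest for cytosolic ribosomal proteins, splicing and the RNA polymerase, TAF and Mediator list. The splicing symbols were narrowed after values were seen, so the place of that list is not independent of them. Of 81 cytosolic ribosomal protein genes 16 were in such a cluster (19.8%), 14 as heads, the strongest being rps-24 (327), rps-16 behind the fibrillarin gene fib-1 (286), rpl-43 (226) and rpl-15 (210). Of all 41 cytosolic ribosomal protein genes in any cluster, 32 are heads. Of 70 mitochondrial ribosomal protein genes 9 were in such a cluster (12.9%), 8 as followers, and in any cluster 18 of 46 are heads. They included mrps-21 (524), mrpl-53 (323), mrps-30 (322) and mrps-14 (299). Of 45 translation factor genes 7 were included, with eif-3.E (322) and eif-3.B (277) of initiation factor 3 and tufm-2 (224), for a mitochondrial elongation factor. The fourth, eif-4A3 (180), is in the list by its symbol, and its product is given only as an RNA helicase. Splicing gave 12 of 61 (19.7%), 6 as heads, with prp-19 (528), snr-1 (377), cwc-15 (244) and prp-38 (137). RNA polymerase, TAF and Mediator genes gave 14 of 75 (18.7%), 9 as followers, with mdt-8 (327), taf-12 (170), ttb-1, the TFIIB gene (161), and rpc-2, of RNA polymerase III (137). Set against the listed genes in any cluster, the order changes: 16 of 41 cytosolic ribosomal protein genes, 12 of 36 splicing, 14 of 51 chromatin, 9 of 33 chaperone, 7 of 27 translation factor and 14 of 54 RNA polymerase, TAF and Mediator genes lay in a cluster with a peak. Peaks above the limit, at a cluster head or not, lay in the promoters of 29 of 81 cytosolic ribosomal protein, 24 of 79 chaperone and 15 of 45 translation factor genes. The same held for 24 of 107 chromatin, 12 of 75 RNA polymerase, TAF and Mediator and 9 of 61 splicing genes, against 5.08% of all genes. High shares are thus not particular to cluster heads.

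Chromatin, trafficking, folding and cell division genes gave shares above the 3.37% of all genes. Chromatin genes gave 14 of 107 (13.1%), with jmjd-1.2 (524), hpl-2, a heterochromatin protein 1 homologue (316), the histone deacetylase gene hda-11 (273) and the histone methyltransferase gene met-1 (224). Vesicle tethering and trafficking gave 21 of 165 (12.7%), led by vps-51 (709), tbc-2 (400), rab-7 (389) and snx-13 (377). Chaperones gave 9 of 79 (11.4%), with the prefoldin genes pfd-5 (302) and pfd-4 (205), dnj-2 (205) and the chaperonin gene cct-2 (174). Cell division gave 7 of 88 (7.95%), with emb-1 (528), the kinetochore genes kbp-2 (245) and bub-1 (228), and bir-1, of the chromosomal passenger complex (184). Respiratory chain and ATP synthase gave 7 of 72 (9.72%), with atp-5 (207), ndua-2 (162), cyc-2.1 (149) and ucr-11 (116). The remaining lists of cell functions were tRNA modification (4 of 34), aminoacyl-tRNA synthetases (3 of 31), mitochondrial import and dynamics (3 of 33), RNA decay and export (4 of 56), proteasome (3 of 35), ubiquitin conjugation (7 of 104), DNA replication and repair (4 of 63) and nuclear pore and transport (2 of 43).

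Large families of environmental and developmental genes, and histone genes, were rare in these clusters. Chemoreceptors, whose symbols were narrowed after values were seen, gave 4 of 1309 (0.306%). All were followers, the strongest str-71 behind rocf-1 (149), although 30.6% of the list lie in some cluster. Peaks above the limit, at a cluster head or not, lay in the promoters of only 9 of the 1309, so this scarcity is not particular to clusters. F-box proteins gave 2 of 322, C-type lectins 2 of 240, cuticle collagens 2 of 156 and nuclear hormone receptors 1 of 269, nhr-142 (154). Histones gave 1 of 72, his-68, and only 8 of the 72 lie in any cluster. Yet 13 of the 72 had a peak above the limit in the promoter, at a cluster head or not, against 5.08% of all genes. Homeobox, bHLH and T-box factors gave 0 of 132, which leaves room for a share of 2.27% by the limit of 3 counts or 2.83% by the Wilson 95% interval. Of these, 21 (15.9%) lie in some cluster. The counts for histones and for this last list thus rest on few clustered genes. They do not show that peaks are rarer at the clusters these genes are in.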

How the data were processed

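The authors' narrowPeak lists on ce11 were used: the list of peaks and background called on both replicates together, 1 such list per replicate and the IDR list. Column 7, as deposited by the authors, is the caller's signal, and column 9 is −log10 of the q-value, also deposited by the authors. Aligner, caller, versions and depth are not given in the sources used here, so no interval from read counts was possible. The ce10 lists were not used. Summits (column 2 plus column 10) were written 1-based and placed on Ensembl release 115 gene models with Python 3.11.15, numpy 2.4.6 and SciPy 1.17.1, and sequence came from RefSeq WBcel235. Neighbouring same-strand genes could also overlap by up to 500 bp. The 1380 strongest peaks of the list of both replicates were kept. Word counts took either strand, 50 bp around each summit and around points 500 bp away on alternate sides, at an adjusted p threshold of 0.05, after a check on simulated windows. The simulated summits and flanks shared 1 base composition and held no genes. The check thus does not cover the differences in composition and gene sequence between real summits and flanks. Wilson intervals cover counting error only.

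The peaks, words and gene lists were chosen with earlier results of these data known, and the chemoreceptor and splicing symbols were narrowed after values were seen. Genes named are those of the 20 strongest peaks, those nearest each limit, the 5 longest clusters, the 5 largest rank differences and at most 4 per list; some with no value of their own are named as neighbours. Alternatives were other numbers of peaks, gaps, promoters, windows, flanks and match distances, and leaving out groups of peaks or a replicate. A flank upstream of the head and 1 summit per head were added after seeing the data.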

Additional observations from a re-analysis of the deposited data

How the results depend on the processing

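The number of cluster-head peaks was 156 with the 690 strongest peaks and 92, of which 54 in the IDR list, without those shared with an opposite-strand gene. The share of heads with a peak was 6.35% with 690 peaks and 13.6% with 2 times the peaks used, 12.8% with gaps up to 200 bp and 8.39% up to 1000 bp, 8.13% with a promoter of 500 bp and 11.0% with 2000 bp, 7.77% without the strongest 10% of peaks, 3.05% without opposite-shared peaks, and 8.41 to 9.94% without 1 replicate. The median position in the same order was −214, −255, −226, −222, −210, −282, −255 and −294 bp, and −242 to −227 bp without 1 replicate. The 3.05% of heads is 86 of all 2817, and no like share was computed for genes in no cluster. The share found in both replicates was 77.5% within 50 bp, 96.7% within 200 bp and 67.2% among the strongest peaks of each replicate. Of 14 words, 3 passed the exact McNemar test with windows of 25 bp to either side, 1 (TTTCAG) in the IDR list, 0 without opposite-shared peaks (3 at an unadjusted p under 0.05, 92 peaks left, lowest adjusted p 0.0528, where the difference for GGTGT was 14.1 points against 9.43, for GGCGGG 9.78 against 7.38 and for GAGAGA 8.70 against 7.79), and 4 to 6 without 1 replicate. None of the 6 words that passed changed direction under its 12 alternatives, and the other 8 were not followed by word. Against other promoter peaks 0 words passed under the 7 alternatives run. Where windows, peak sets or replicates changed a call, the cause was not tested. No paired analysis was possible because the design has 1 group. Depth is unknown, and words in few windows limit the precision.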
